A study of Caenorhabditis elegans with 14 samples.

Results

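The lipid-binding protein genes lbp-1 to lbp-9 of Caenorhabditis elegans were followed in 2 wild-type strains at 3 ages. The genes were taken by name, from the platform's gene symbol or the name of the coding sequence on the array, without a cutoff on a measured value. The family itself was chosen with earlier results of these data known. All 9 were found, each on 1 array element (a spot with a 60-mer probe), among 18879 gene names on 22490 worm elements. By their coding sequences they are F40F4.3 (lbp-1), F40F4.2 (lbp-2), F40F4.4 (lbp-3), ZK742.5 (lbp-4), W02D3.7 (lbp-5), W02D3.5 (lbp-6), T22G5.2 (lbp-7), T22G5.6 (lbp-8) and Y40B10A.1 (lbp-9).

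Lipid-binding proteins of this family are small barrel-shaped proteins that hold a fatty acid or another lipid in a water-filled cavity, and so carry it through the watery space in or between cells. They are the worm relatives of the vertebrate fatty acid-binding proteins. LBP-1, LBP-2 and LBP-3 have a predicted signal peptide and are taken to be secreted, whereas the other members are taken to stay inside the cell. In the worm, most fat is stored in the intestine, and in adult hermaphrodites the intestine also supplies lipid to the growing oocytes through secreted yolk.

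RNA of N2, the standard laboratory strain, and CB4856, a wild isolate from Hawaii, was labeled with 2 dyes and hybridized together on each array. Juvenile worms (t1, 40 hr) were measured on 5 arrays, reproductive worms (t2, 96 hr) on 4 and old worms (t3, 214 hr) on 5, which makes 28 channels (an array and a strain) on 14 arrays. Both strains are wild types, but their genotypes differ, so that a strain ratio compares different alleles. Whether sequence differences within a probe contribute to these ratios was not tested. Both strains were started from unmated hermaphrodites and grown on E. coli OP50 at the same constant temperature, without any agent other than that named next. The worms for t2 and t3 of both strains had spent a time on FUDR (fluorodeoxyuridine, which blocks DNA synthesis and keeps eggs from hatching), and those for t1 had not, so that between t1 and t2, and between t1 and t3, age and this treatment cannot be told apart. The stage of the t1 worms is late L3 in the labels and late L4 in the methods of the study, and the methods name more replicates than the arrays analysed here. The material was whole worms, pooled from several dishes, so that fewer cells of a type and less RNA per cell cannot be told apart. The labels do not say whether arrays of 1 age came from separate cultures, and the p-values therefore measure the spread between arrays, which may be technical.

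The median intensity of a channel was 191 to 303 and its median local background 163 to 183, and 39.3% to 63% of the worm elements were above background (their local background by more than 2 SD). The strains written in the headers of the array files matched the labels for 14 of 14 arrays. N2 was labeled with Cy3 on replicates 1 to 3 of each age, and the dyes were exchanged on the others (replicates 4 and 5). The labels give each of these 5 arrays the number of an array of the same age with the opposite dyes (replicates 1 and 4, and 2 and 5), and do not say whether both carried the same RNA. The log2 ratios of the 5 pairs correlated with r from 0.414 to 0.626, against 0.145 to 0.525 for the 10 other pairs of arrays of 1 age with opposite dyes. The arrays were counted as separate samples, and if the pairs shared their RNA, the SE values are too small. With these pairs averaged, which leaves 3 values per age, 6 of the 9 genes were called from t1 to t2, 5 from t2 to t3 (lbp-1 was lost, at -0.68 with an adjusted p of 0.25) and 0 between the strains. The shares of all elements called with averaged pairs are not given here, so these counts show only which lbp calls were kept. Levels are given as normalized log2 intensity. A level of 1 gene is compared only with other levels of the same gene, since probes differ in how strongly they bind. Changes are log2 differences with their standard error (SE) from limma, and calls were made where the p adjusted over all 22490 elements by the method of Benjamini and Hochberg was under 0.05. Of the 9 genes, 8 were above background in 28 of 28 channels and lbp-8 in 3 of 28.

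The genes lie in small groups on the chromosomes. In the RefSeq annotation (WBcel235), used here only for neighbours, lbp-1, lbp-2 and lbp-3 lie side by side on chromosome X, with 0 other genes between lbp-1 and lbp-2 and 0 between lbp-1 and lbp-3. On chromosome I, 1 gene lies between lbp-5 and lbp-6, and on chromosome V, 3 genes lie between lbp-7 and lbp-8. The genes lbp-4 and lbp-9 are also on chromosome V.

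From juvenile to reproductive worms, 3 members rose and 3 fell. The 3 genes for secreted proteins, lbp-1, lbp-2 and lbp-3, rose by log2 changes between 1.05 and 1.60. The intracellular lbp-5, lbp-6 and lbp-7 fell, by log2 changes between -1.73 and -1.33, whereas the intracellular lbp-4 (-0.15) and lbp-9 (0.29) were not called and lbp-8 was too dim to be read. Of the 9 genes, 3 were called higher and 3 lower at t2, against 33.7% of all elements called in this comparison (18.4% higher and 15.3% lower). From reproductive to old worms, 0 of the 9 were called higher and 6 were called lower, the same 6 genes, against 19.7% of all elements called (9.42% higher and 10.3% lower), and without normalization between arrays 0 of the 9 were called and lbp-1 and lbp-6 turned to positive values. The median change of the 9 genes in aging worms was -0.89, and that of all elements 0.0059. Both comparisons use the t2 arrays and are therefore not independent.

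Scaling the arrays to each other mattered most for aging worms. With the quantile normalization used throughout, 47.7% of the elements called from t2 to t3 were higher at t3, against 95.5% without normalization between arrays. In the latter setting 6654 of all 22490 elements were called higher and 310 lower, and the median change of all elements moved to 0.29. Relative to that median, the unscaled changes from t2 to t3 were -0.27 for lbp-1, -0.68 for lbp-2, -1.36 for lbp-3, -0.47 for lbp-5, -0.14 for lbp-6 and -0.96 for lbp-7, all below the median. From t1 to t2 the share of called elements that were higher was 54.6% with and 39% without this normalization, with medians of 0.027 and -0.05. From t1 to t3 it was 54.9% and 80.3%, with a median of 0.11 without normalization between arrays.

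**Figure D1:**
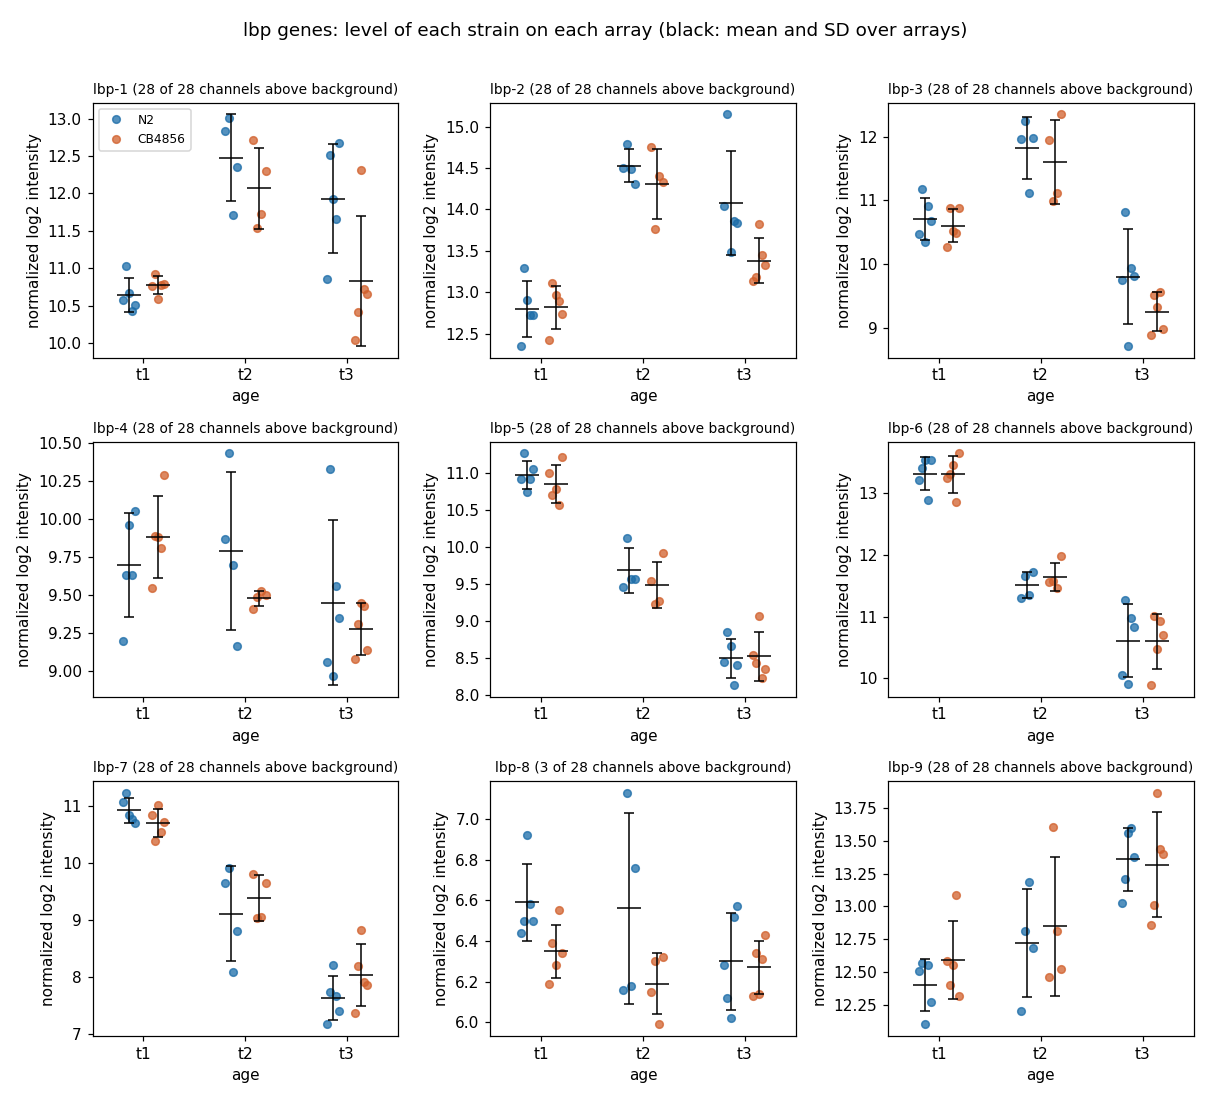
Normalized log2 intensity (y axis, a scale of its own in each panel) of the 9 lbp genes at t1, t2 and t3 (x axis), 1 point per array and strain (N2 blue, CB4856 orange), with the mean and SD over arrays in black (n = 5, 4 and 5). The genes lbp-1, lbp-2 and lbp-3 were at their highest mean level at t2, whereas lbp-5, lbp-6 and lbp-7 had theirs at t1 and their lowest at t3 (without normalization between arrays lbp-1 and lbp-6 were 0.02 and 0.15 higher at t3 than at t2). lbp-8 was above background in 3 of 28 channels.

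lbp-1 encodes a predicted secreted lipid-binding protein. Its mean log2 intensity of both strains was 10.67, 10.97, 10.63, 10.61 and 10.65 on the t1 arrays (replicates 1 to 5), 12.78, 12.27, 11.72 and 12.32 on the t2 arrays (replicates 1 to 4), and 10.45, 11.47, 12.12, 11.19 and 11.67 on the t3 arrays (replicates 1 to 5). All t2 arrays were above all t1 arrays, while the t3 arrays spread from below the lowest t1 array into the range of t2. The rise from t1 to t2 was 1.57 (SE 0.28, 2.96-fold, adjusted p = 0.00065), and the fall from t2 to t3 was -0.89 (SE 0.28, 1.86-fold, adjusted p = 0.04), which turned to 0.02 without normalization between arrays. The t2 to t3 call of lbp-1 was not firm. It was lost when any single array among t1 replicates 1, 3, 4 and 5, t2 replicates 1, 2 and 4, or t3 replicates 1, 2 and 4 was left out (log2 change -0.93 to -0.67, adjusted p 0.051 to 0.12). From t1 to t3, a comparison added after the values were seen, lbp-1 differed by 0.67 (SE 0.26, adjusted p = 0.055). The order of its mean levels was t2, t3 and t1, in which t3 and t1 were not called different. This depended on the setting, as 6 of 25 alternatives called lbp-1 higher at t3 than at t1. Without normalization between arrays the difference was 1.76 (adjusted p = 0.0024), with dim elements left out 0.67 (adjusted p = 0.035), and with spots of 1 flag code 0.67 (adjusted p = 0.037). The same call was made without t2 replicate 1 (0.67, adjusted p = 0.049), t2 replicate 3 (0.68, adjusted p = 0.045) or t3 replicate 1 (0.92, adjusted p = 0.0039). Over all arrays left out in turn, that adjusted p lay between 0.0039 and 0.13.

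lbp-2, for a predicted secreted protein, had mean log2 intensities of 12.39, 13.20, 12.94, 12.81 and 12.74 on the t1 arrays, 14.63, 14.28, 14.45 and 14.32 on those of t2 and 13.59, 14.16, 13.65, 13.66 and 13.58 on those of t3. The ages did not overlap in any of the 3 pairings, with t2 highest, t3 between and t1 lowest, and t3 replicate 2 stood above the other t3 arrays. The change was 1.60 (SE 0.16, 3.04-fold, adjusted p = 5.4e-06) from t1 to t2 and -0.69 (SE 0.16, 1.61-fold, adjusted p = 0.0085) from t2 to t3. In old worms lbp-2 was still higher than in juvenile worms, by 0.91 (SE 0.15, 1.88-fold, adjusted p = 0.00023).

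lbp-3 encodes a lipid chaperone that, in worms with active lysosomal lipolysis, is secreted from the intestine and signals to neurons through NHR-49 and the neuropeptide gene nlp-11. Its mean log2 intensity was 10.37, 11.02, 10.42, 10.69 and 10.77 on the t1 arrays, 11.95, 11.61, 11.11 and 12.16 on those of t2 and 9.31, 10.16, 9.02, 9.74 and 9.40 on those of t3. The 3 ages did not overlap, and unlike lbp-1 and lbp-2 the old worms were the lowest. The rise from t1 to t2 was 1.05 (SE 0.25, 2.08-fold, adjusted p = 0.0043) and the fall from t2 to t3 was -2.18 (SE 0.25, 4.54-fold, adjusted p = 6.5e-05), which left lbp-3 lower at t3 than at t1 by -1.13 (SE 0.23, adjusted p = 0.0013), or 0.13 and not called without normalization between arrays. Without that normalization neither its rise (1.20, adjusted p = 0.087) nor its fall (-1.07, adjusted p = 0.087) was called. Among the 27 alternative settings run, 25 called the rise of lbp-3 and 25 called its fall.

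lbp-5, lbp-6 and lbp-7 encode intracellular members. Lowering lbp-5 by RNA interference is known to raise fat storage in worms. The mean log2 intensity of lbp-5 was 10.95, 10.98, 10.76, 10.74 and 11.13 on the t1 arrays, 9.49, 9.67, 9.42 and 9.73 on those of t2 and 8.49, 8.64, 8.86, 8.18 and 8.37 on those of t3. The 3 ages of lbp-5 did not overlap and fell in the order of age. Its log2 changes were -1.33 (SE 0.13, 2.52-fold, adjusted p = 5.4e-06) from t1 to t2 and -1.07 (SE 0.13, 2.1-fold, adjusted p = 0.00012) from t2 to t3.

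lbp-6 had mean log2 intensities of 13.23, 13.37, 13.50, 12.88 and 13.59 on the t1 arrays, 11.44, 11.62, 11.41 and 11.85 on those of t2 and 9.97, 11.14, 10.20, 10.95 and 10.78 on those of t3. No t2 array reached a t1 array and no t3 array reached a t2 array. The gene fell by a log2 change of -1.73 (SE 0.23, 3.32-fold, adjusted p = 5.8e-05) from t1 to t2 and of -0.97 (SE 0.23, 1.97-fold, adjusted p = 0.0093) from t2 to t3, the latter turning to 0.15 and not called without normalization between arrays. Before any normalization, the intensity of lbp-6 in N2 ranged from 6564 to 17129 at t1, from 1658 to 4317 at t2 and from 1285 to 7516 at t3, so that the raw values of t2 and t3 overlapped.

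lbp-7 showed the largest fall over the whole period among the 9 genes. Its mean log2 intensity was 10.95, 10.81, 10.93, 10.66 and 10.71 on the t1 arrays, 9.73, 9.47, 8.57 and 9.22 on those of t2 and 7.27, 7.96, 8.52, 7.79 and 7.63 on those of t3. The ages fell in order without overlap, although t2 replicate 3 and t3 replicate 3 were close to each other. At t3 the element was dim. On t3 replicate 1 its intensity was 249 in N2 and 238 in CB4856, against local backgrounds of 171 and 178. The changes of lbp-7 were -1.56 (SE 0.24, 2.96-fold, adjusted p = 0.00023) and -1.41 (SE 0.24, 2.66-fold, adjusted p = 0.0014). From t1 to t3 lbp-7 differed by -2.98 (7.88-fold, adjusted p = 3.6e-07), lbp-6 by -2.71 (6.53-fold, adjusted p = 4.5e-07) and lbp-5 by -2.40 (5.29-fold, adjusted p = 1.2e-08).

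lbp-9, an intracellular member, was not called between neighbouring ages. Its mean log2 intensity was 12.55, 12.48, 12.33, 12.82 and 12.30 on the t1 arrays, 12.33, 13.21, 13 and 12.60 on those of t2 and 12.95, 13.11, 13.72, 13.52 and 13.39 on those of t3. The t2 arrays overlapped both other ages, whereas all t3 arrays were above all t1 arrays. The differences were 0.29 (SE 0.19, adjusted p = 0.3) from t1 to t2, 0.55 (SE 0.19, adjusted p = 0.064) from t2 to t3 and 0.84 (SE 0.18, 1.79-fold, adjusted p = 0.002) from t1 to t3. With lbp-2, lbp-9 was 1 of the 2 genes called higher in old than in juvenile worms, and 4 were called lower, against 43.5% of all elements called (23.9% higher and 19.6% lower). The t2 to t3 change of lbp-9 was called in 3 of 27 alternatives, of which 2 left out a single array. Those 2 were without t2 replicate 2 (0.69, adjusted p = 0.031) and without t3 replicate 1 (0.65, adjusted p = 0.04). With each array left out in turn, the adjusted p of this change lay between 0.031 and 0.19.

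lbp-4, also intracellular, was not called between any ages. Its mean log2 intensity ranged from 9.37 to 10.17 at t1, from 9.33 to 9.96 at t2 and from 9.07 to 9.82 at t3, so that all ages overlapped. The change was -0.15 (95% confidence interval -0.55 to 0.24, adjusted p = 0.6) from t1 to t2 and -0.27 (-0.66 to 0.12, adjusted p = 0.35) from t2 to t3. From t1 to t3 lbp-4 differed by -0.42 (SE 0.17, adjusted p = 0.063). This was called in 4 of 25 alternatives, of which 2 left out a single array. Those 2 were without t1 replicate 1 (-0.53, adjusted p = 0.022) and without t3 replicate 2 (-0.53, adjusted p = 0.018). Over all arrays left out the adjusted p lay between 0.018 and 0.15, and over all alternatives it was 0.0085 at the lowest. The t1 to t3 difference of lbp-4 was 0.92 and not called without normalization between arrays.

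lbp-8 encodes the chaperone that carries lipid from the lysosome to the nucleus, where it acts with the nuclear receptors NHR-49 and NHR-80 and lengthens life when overexpressed. Its element was not well above background in 25 of 28 channels, and the channels above it were 1 of N2 at t2 and 2 of N2 at t3. Its intensity lay between 171 and 277 in N2 and between 169 and 213 in CB4856, close to the local background. No fold change is given for lbp-8, and its level could not be ordered over the ages.

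**Figure D2:**
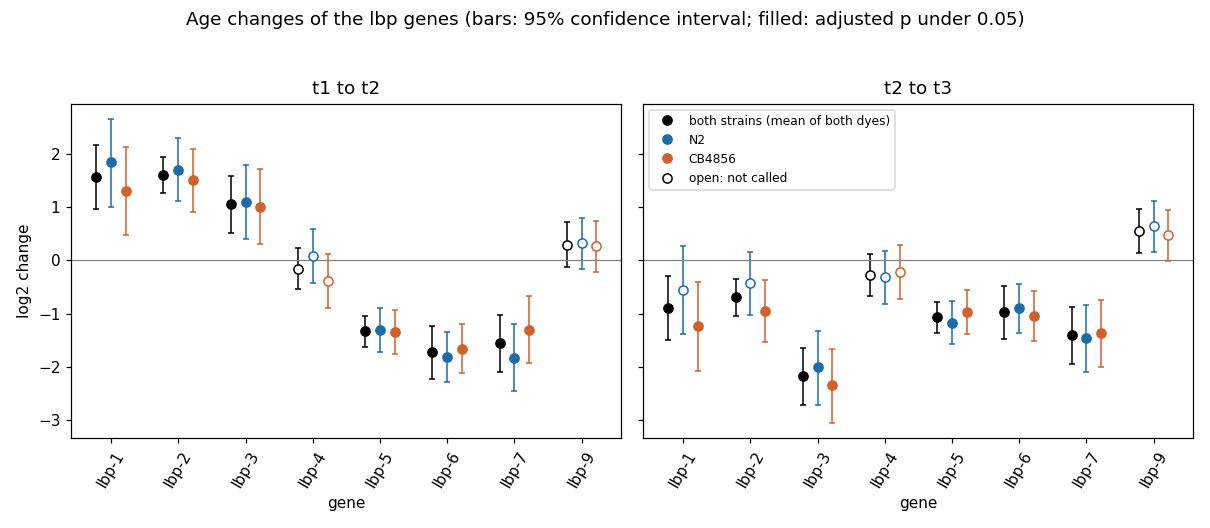
Log2 change (y axis) of the 8 lbp genes above background in at least 14 of 28 channels (x axis), from t1 to t2 (left) and from t2 to t3 (right), over both strains (black), in N2 (blue) and in CB4856 (orange), with 95% confidence intervals. Filled points were called. lbp-1, lbp-2 and lbp-3 were called higher and lbp-5, lbp-6 and lbp-7 lower from t1 to t2 in both strains, and without normalization between arrays lbp-1, lbp-3 and lbp-7 were not called in CB4856, nor lbp-3 in N2. From t2 to t3 all called changes were negative, and without normalization between arrays those of lbp-1 and lbp-6 over both strains turned to 0.02 and 0.15.

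Each strain taken alone, with the 2 strains of an array linked in a single fit of the 28 channels, showed the same genes in developing worms. From t1 to t2, lbp-1, lbp-2 and lbp-3 were called higher and lbp-5, lbp-6 and lbp-7 lower in N2, where 32% of all elements were called (17.4% higher and 14.7% lower), and in CB4856, where 28.3% were called (15.1% higher and 13.1% lower). For lbp-1 the change was 1.84 (SE 0.4, adjusted p = 0.00081) in N2 and 1.30 (SE 0.4, adjusted p = 0.016) in CB4856. For lbp-7 it was -1.83 (SE 0.3, adjusted p = 4.4e-05) in N2 and -1.30 (SE 0.3, adjusted p = 0.0019) in CB4856. The other changes were 1.70 and 1.51 for lbp-2, 1.10 and 1.01 for lbp-3, -1.31 and -1.35 for lbp-5, and -1.81 and -1.66 for lbp-6, in N2 and CB4856 respectively. In CB4856, lbp-1 was no longer called without t2 replicate 1 (1.08, adjusted p = 0.075) or t2 replicate 4 (1.19, adjusted p = 0.061). The rise of lbp-3 in CB4856 was lost without t1 replicate 1 (0.92, adjusted p = 0.072), t1 replicate 4 (0.95, adjusted p = 0.055), t2 replicate 1 (0.89, adjusted p = 0.096) or t2 replicate 4 (0.73, adjusted p = 0.16). Over all arrays left out in turn the adjusted p in CB4856 lay between 0.0027 and 0.075 for lbp-1 and between 0.0067 and 0.16 for lbp-3.

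From t2 to t3, 4 of the 9 genes were called lower in N2 (lbp-3, lbp-5, lbp-6 and lbp-7) and 6 in CB4856 (these and lbp-1 and lbp-2), and none was called higher, against 18.5% of all elements called in N2 (8.91% higher and 9.57% lower) and 13% in CB4856 (5.63% higher and 7.38% lower). For lbp-3 the change was -2.01 (SE 0.34, adjusted p = 0.00016) in N2 and -2.35 (SE 0.34, adjusted p = 4.9e-05) in CB4856. For lbp-5 it was -1.17 and -0.97, for lbp-6 -0.90 and -1.05, and for lbp-7 -1.46 and -1.37, in N2 and CB4856 respectively. The genes called in CB4856 alone were lbp-1, with -1.24 (SE 0.4, adjusted p = 0.042) in CB4856 and -0.55 (SE 0.4, adjusted p = 0.4) in N2, and lbp-2, with -0.95 (SE 0.28, adjusted p = 0.028) and -0.43 (SE 0.28, adjusted p = 0.35). These differences between the strains were not called when tested directly. The change of the CB4856 over N2 difference from t2 to t3 was -0.69 (SE 0.46, adjusted p = 0.93) for lbp-1 and -0.52 (SE 0.36, adjusted p = 0.94) for lbp-2. In CB4856 the lbp-1 call was lost without any single array other than t2 replicates 2 and 3 and t3 replicate 3 (-1.23 to -1.02, adjusted p 0.052 to 0.16). The lbp-2 call in CB4856 was lost without t2 replicate 1, 3 or 4 or t3 replicate 1, 4 or 5 (-0.97 to -0.78, adjusted p 0.059 to 0.12). In N2, lbp-2 was called lower without t3 replicate 2 (-0.72, adjusted p = 0.041), and with each array left out in turn its adjusted p lay between 0.041 and 0.58. The gene lbp-9 was 0.64 higher at t3 than at t2 in N2 (SE 0.23, adjusted p = 0.056) and was called in 5 of 21 alternatives, namely without normalization between arrays (1.12, adjusted p = 0.032), with dim elements left out (0.64, adjusted p = 0.044), and without t2 replicate 2 (adjusted p = 0.042), t2 replicate 3 (adjusted p = 0.025) or t3 replicate 1 (adjusted p = 0.048). In CB4856 it was 0.47 higher (adjusted p = 0.2) and was called without t2 replicate 2 alone (0.72, adjusted p = 0.027).

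The date in the header of each array file put the arrays into 4 sessions, taken here as scan sessions. Arrays of t1 and t2 were in each of them, and arrays of t3 were missing from session 4. Within every session lbp-1, lbp-2 and lbp-3 were higher at t2 than at t1, by 1.09 to 2.17, 1.31 to 1.93 and 0.69 to 1.79 on the log2 scale. Within every session lbp-5, lbp-6 and lbp-7 were lower at t2, by differences of -1.39 to -1.22, -2.09 to -1.38 and -2.36 to -0.93. From t2 to t3 the differences within the 3 sessions lay between -0.83 and -0.37 for lbp-2, -2.85 and -1.66 for lbp-3, -1.26 and -0.80 for lbp-5, -1.88 and -0.57 for lbp-6, and -1.96 and -0.49 for lbp-7. For lbp-1 they were -1.88, -0.94 and 0.18 in sessions 1, 2 and 3, so that its direction was not shared by the sessions. For lbp-9 the t1 to t2 differences ranged from -0.49 to 0.82, and those from t2 to t3 from 0.10 to 0.56.

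**Figure D3:**
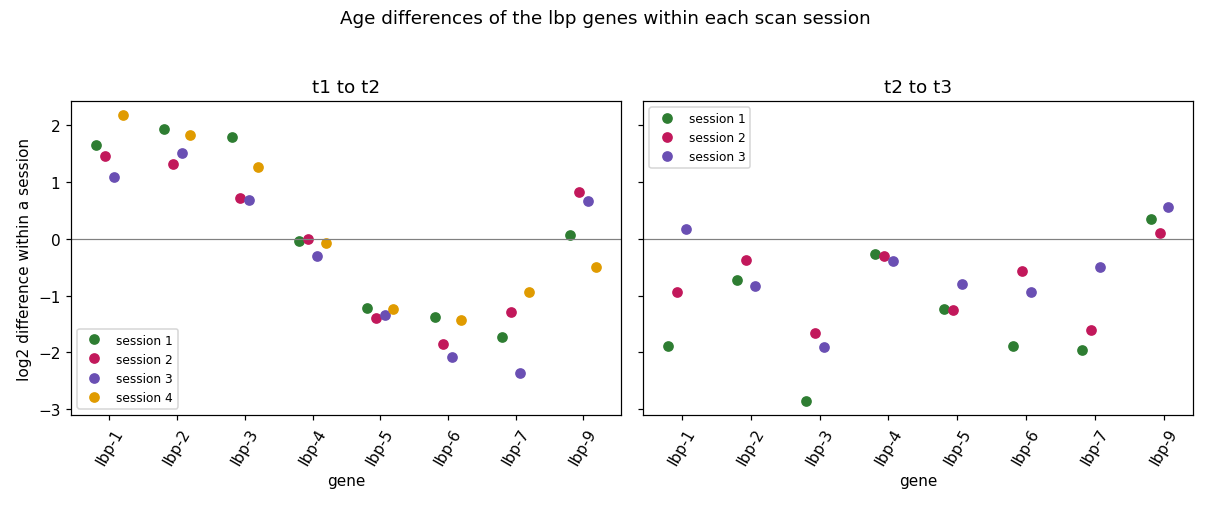
Log2 difference of the mean intensity of both strains (y axis) between ages within each scan session (colors), for the 8 lbp genes above background in at least 14 channels (x axis), from t1 to t2 (left, 4 sessions) and from t2 to t3 (right, 3 sessions); a session holds 1 or 2 arrays of an age. In developing worms the 4 sessions lay on the same side of 0 for lbp-1, lbp-2, lbp-3, lbp-5, lbp-6 and lbp-7, and in aging worms lbp-1 was at 0.18 in session 3 and negative in the others.

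No lbp gene was called different between the strains at any age. At t1, 0 of 9 were called, against 2.65% of all elements, and 0 had an unadjusted p under 0.05. At t2, 0 of 9 were called against 2.64%, with 1 unadjusted p under 0.05 (lbp-8, whose element was above background in only 3 of 28 channels). At t3, 0 of 9 were called against 3.42%, with 2 unadjusted p under 0.05 (lbp-1 and lbp-2). In juvenile worms the 95% confidence intervals of the CB4856 over N2 log2 ratio were narrow for some genes, such as -0.24 to 0.22 for lbp-6, and wider for others, such as -0.53 to 0.78 for lbp-1 and -0.65 to 0.26 for lbp-7.

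The largest strain difference was that of lbp-1 in old worms, with lower values in CB4856. On t3 replicates 1 to 5 the log2 ratio (CB4856 over N2) was -0.81, -2.10, 0.38, -0.95 and -2.01, and N2 was higher on 4 of 5 arrays. The exception was t3 replicate 3. The mean levels were 11.93 ± 0.73 in N2 and 10.83 ± 0.87 in CB4856 at t3 (SD, n = 5), against 10.64 ± 0.23 and 10.77 ± 0.12 at t1 (SD, n = 5) and 12.48 ± 0.58 and 12.07 ± 0.54 at t2 (SD, n = 4). The difference of -1.10 (SE 0.3, 2.14-fold, 95% confidence interval -1.76 to -0.44) had an adjusted p of 0.071. At t1 the ratios of the same lbp-1 element were 0.19, -0.11, -0.07, 0.34 and 0.28, and at t2 they were -0.12, -1.48, 0.02 and -0.05, so that the values of the strains lay within 0.34 of each other on all t1 arrays and on all t2 arrays but replicate 2. The adjusted p of lbp-1 at t3 depended on the setting. It was 0.042 with a normexp offset of 10, 0.048 with dim elements left out of the test, 0.039 with scan session as a block, 0.038 without t2 replicate 2 and 0.0066 without t3 replicate 3 (log2 ratio -1.49), and over all alternatives it lay between 0.0066 and 0.6.

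The neighbouring lbp-2 and lbp-3 showed the same arrays apart at t3. For lbp-2 the log2 ratios were -0.92, -1.97, 0.33, -0.42 and -0.50 on t3 replicates 1 to 5 (-0.67, SE 0.24, 1.59-fold, adjusted p = 0.18). For lbp-3 they were -0.86, -1.30, 0.62, -0.37 and -0.83 (-0.53, SE 0.25, 1.44-fold, adjusted p = 0.35). On both elements N2 was higher on 4 of 5 arrays, with t3 replicate 3 as the exception and t3 replicate 2 as the lowest. Without t3 replicate 3, lbp-2 (-0.96, adjusted p = 0.024) and lbp-3 (-0.84, adjusted p = 0.043) were called lower in CB4856 beside lbp-1. With each array left out in turn, the adjusted p at t3 lay between 0.024 and 0.55 for lbp-2 and between 0.043 and 0.74 for lbp-3.

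**Figure D4:**
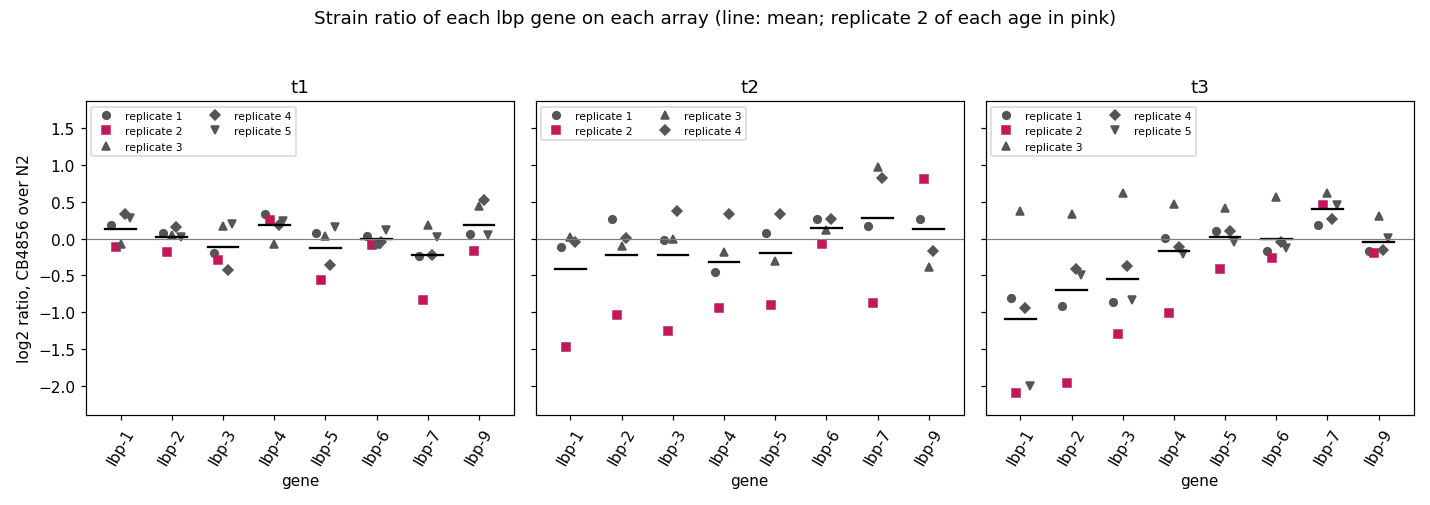
Log2 ratio of CB4856 over N2 (y axis) of the 8 lbp genes above background in at least 14 channels (x axis) on each array at t1, t2 and t3 (panels), with the mean over arrays as a line and replicate 2 of each age in pink. At t3 the ratios of lbp-1 ranged from -2.10 to 0.38 and those of lbp-7 from 0.19 to 0.62.

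On 2 arrays the ratios of most members lay on the same side of 0, above it on t3 replicate 3 and below it on t2 replicate 2. On t3 replicate 3 the ratio was above 0 for 8 of the 8 genes above background, at 0.38 for lbp-1, 0.57 for lbp-6 and 0.62 for lbp-3. The share of all elements above 0 on that array is not given here, so this is not read as a trait of the family. On t2 replicate 2 the ratio lay between -1.48 and -0.87 for lbp-1, lbp-2, lbp-3, lbp-4, lbp-5 and lbp-7, at -0.08 for lbp-6 and at 0.81 for lbp-9. The share of all elements below 0 on t2 replicate 2 is not given either, and this too is not read as a trait of the family. On the same array the levels of lbp-1 were 13.01 in N2 and 11.54 in CB4856, and those of lbp-9 were 12.81 in N2 and 13.61 in CB4856. lbp-7 was higher in CB4856 on 5 of 5 arrays at t3, with ratios of 0.19, 0.46, 0.62, 0.26 and 0.46, but its difference of 0.42 (SE 0.21, 1.34-fold, 95% confidence interval -0.033 to 0.88) had an adjusted p of 0.38.

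The change of the strain difference with age was not called for any lbp gene, with 0 of 9 from t1 to t2 against 0.734% of all elements and 0 of 9 from t2 to t3 against 0.187%. In both comparisons 0 of the 9 had an unadjusted p under 0.05. The smallest adjusted p was 0.7 in developing worms and 0.86 in aging worms. The confidence intervals were wide for the secreted members. For lbp-1 the change lay between -1.52 and 0.45 in developing worms and between -1.68 and 0.3 in aging worms, whereas for lbp-6 it lay between -0.19 and 0.5 and between -0.49 and 0.2.

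Over the 28 channels, lbp-5, lbp-6 and lbp-7 had the most similar levels among the members, with Pearson's r of 0.935 between lbp-5 and lbp-6, 0.953 between lbp-5 and lbp-7 and 0.915 between lbp-6 and lbp-7. lbp-1 and lbp-2 correlated with r = 0.838, and lbp-3 with r = 0.495 to lbp-1 and 0.439 to lbp-2. lbp-9 ran against lbp-5, lbp-6 and lbp-7, with r between -0.730 and -0.704. These correlations are descriptions. The channels fall in pairs on 14 arrays and follow the 3 ages, so that any genes with a large age change correlate.

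Among the 11807 elements above background in at least 14 channels, those of other genes most like each member by Pearson's r over the 28 channels were the following. For lbp-1 they were lgmn-1, a legumain-type protease gene (0.885), Y106G6D.4 (0.874) and srlf-31 (0.871). For lbp-2 they were ttr-54, of the transthyretin-like family (0.954), D1086.1 (0.953) and F15E6.3 (0.942). For lbp-3 they were the C-type lectin genes clec-1 (0.937) and clec-160 (0.933), and swm-1, for a secreted protease inhibitor that acts on sperm activation (0.930). The elements most like the falling genes had higher r, which the shared age steps also raise. For lbp-5 they were nlp-12, a neuropeptide gene (0.971), C52G5.2 (0.966) and lep-5 (0.966), for lbp-6 dct-18 (0.976), the aquaglyceroporin gene aqp-4 (0.965) and semo-1 (0.964), and for lbp-7 W07G4.5 (0.971), sre-2 (0.959) and C46G7.1 (0.959). For lbp-9 they were hrpa-1, for a nuclear RNA-binding protein (0.902), T05B9.1 (0.902) and atgl-1, the gene of the adipose triglyceride lipase (0.869). For lbp-4, which was not called with age, the highest values were lower, with nduv-3 at 0.797, F53F1.2 at 0.774 and B0457.2 at 0.744.

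Other lipid carriers were compared as lists, by how many elements were called and beside the shares of all elements given above. Of 8 elements for the fatty acid and retinol binding genes far-1 to far-8, whose products are nematode-specific lipid carriers, 2 were called higher and 0 lower from t1 to t2, and 0 higher and 5 lower from t2 to t3 (median change -1.25, against 0.0059 over all elements). far-3 rose by 2.86 (SE 0.39, adjusted p = 7.8e-05) and far-6 by 0.78 (SE 0.23, adjusted p = 0.017) in developing worms, and both fell in aging worms, far-3 by a log2 change of -1.76 (SE 0.39, adjusted p = 0.0068). The largest fall was that of far-8, at -1.90 (SE 0.17, adjusted p = 1.3e-05), followed by far-3 and by far-5 at -1.63 (SE 0.29, adjusted p = 0.0018). Of 6 elements for acyl-CoA binding genes, 2 were higher and 3 lower at t2, and 0 higher and 3 lower at t3, among them acbp-3 with -1.20 and -1.36 and acbp-6 with -1.04 in aging worms. Without normalization between arrays 0 of these 14 elements were called lower from t2 to t3 and 1, of the acyl-CoA binding genes, was called higher, and 1 of the 8 called then turned positive, that of maa-1 (0.13, adjusted p = 0.77). From t1 to t2, 1 of the 2 far calls and 1 of the 5 acyl-CoA binding calls were kept in that setting, and all kept their sign.

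**Figure D5:**
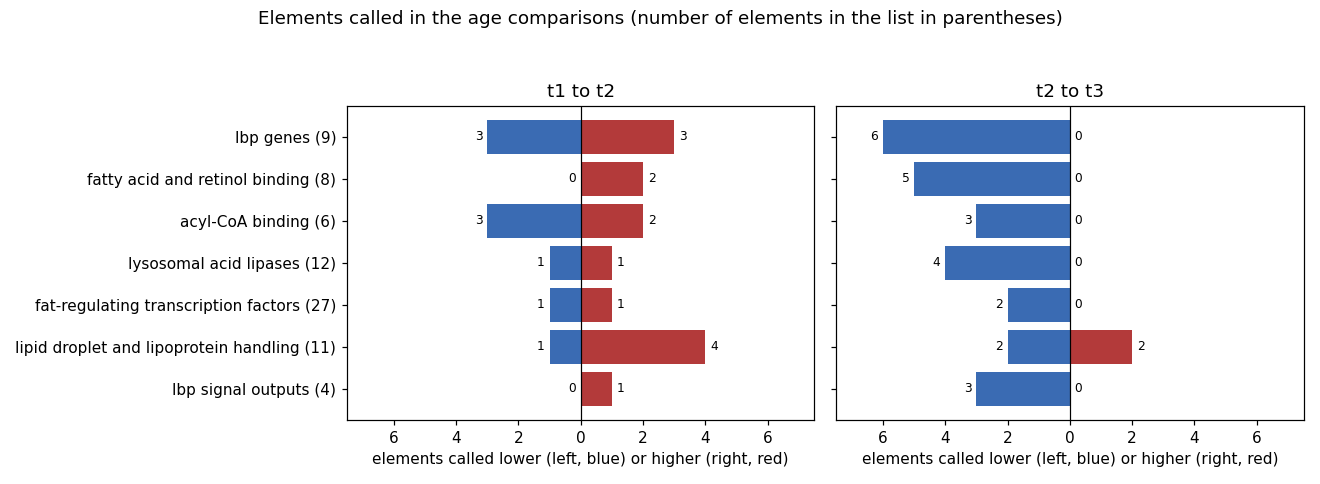
Number of elements called higher (red, to the right) or lower (blue, to the left; x axis) from t1 to t2 and from t2 to t3 in the 9 lbp genes and in 6 lists of genes of lipid handling (y axis, number of elements in parentheses). From t2 to t3, 6 lbp elements and 5 of 8 fatty acid and retinol binding elements were called lower, and calls in the higher direction were made, with quantile normalization, in the list of lipid droplet and lipoprotein handling alone (2 of 11). Without normalization between arrays 0 lbp elements were called from t2 to t3, and elements were called higher in the lists of transcription factors (12 of 27), lipid droplet and lipoprotein handling (5 of 11) and acyl-CoA binding (1 of 6). Of all 22490 elements, 6654 were called higher and 310 lower in that setting.

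The lysosomal acid lipases free fatty acids that lipid-binding proteins can take up. Of 12 elements for lipl-1 to lipl-8, 1 was higher and 1 lower at t2, and 0 were higher and 4 lower at t3, of which 3 belong to lipl-5 (-3.07, -2.04 and -2, with adjusted p of 0.018, 0.01 and 0.0019) and 1 to lipl-7 (-0.50, adjusted p = 0.047). Without normalization between arrays 0 of these 4 elements were called, and the change of lipl-7 turned to a log2 value of 0.04 (adjusted p = 0.94). From t1 to t2, 1 of the 2 lipase calls was kept in that setting. The element of lipl-4, which works with LBP-8 and LBP-3 and is named here after its values were seen, was above background in 16 of 28 channels and differed by -0.64 (SE 0.78, adjusted p = 0.61) and 0.51 (SE 0.78, adjusted p = 0.71). In the list of 4 genes that act downstream of LBP-3 or LBP-8 signaling, fat-5, a desaturase gene, was higher at t2 by 1.66 (SE 0.27, adjusted p = 0.00036). From t2 to t3, 3 of the 4 fell, the desaturase genes fat-7 (-2.81, SE 0.38, adjusted p = 0.00024) and fat-5 (-1.76, SE 0.27, adjusted p = 0.00068) and the neuropeptide gene nlp-11 (-0.77, SE 0.21, adjusted p = 0.021), of which 1 was called without normalization between arrays. At t3, fat-7 was the only one of the 4 called between the strains, higher in CB4856 by 0.82 (SE 0.18, adjusted p = 0.024), and lipl-5 was higher in CB4856 on 1 element (0.74, adjusted p = 0.021).

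Of 27 elements for transcription factors of fat metabolism, 1 was higher and 1 lower at t2, and 0 were higher and 2 lower at t3, both of nhr-80 (-0.75, adjusted p = 0.024, and -0.45, adjusted p = 0.0065, the latter on an element above background in 8 of 28 channels). This balance was the opposite without normalization between arrays, where 12 of the 27 were called higher and 0 lower from t2 to t3. Of all 22490 elements, 6654 were called higher and 310 lower in that setting. From t1 to t2, 0 of the 27 were then called, against 3810 of all elements. Of 11 elements for lipid droplet and lipoprotein genes, 4 were higher at t2, among them rme-2, the yolk receptor of oocytes (2.14, adjusted p = 2.5e-05), and lid-1, a cofactor of the fat-droplet lipase (1.67, adjusted p = 2.9e-06), and 1 was lower, dsc-4, the gene of the microsomal triglyceride transfer protein (-1.83, adjusted p = 5.9e-06). From t2 to t3, 2 of these 11 rose, hosl-1 (1.24, adjusted p = 0.014) and atgl-1 on 1 element (0.90, adjusted p = 0.045), and 2 fell, the droplet protein gene dhs-3 (-1.96, adjusted p = 6.2e-05) and dsc-4 (-1.07, adjusted p = 0.0014). Of the 11, 5 were called higher and 0 lower from t2 to t3 without normalization between arrays, so that the calls of dhs-3 and dsc-4 were lost. From t1 to t2, 3 of the 5 calls among the 11 were kept in that setting.

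Tissue markers moved with age in the same worms. Of 10 elements for intestinal markers, 0 were higher and 5 lower at t2, and 0 higher and 7 lower at t3, and their summed background-subtracted intensity in N2 (not normalized) ranged from 31400 to 81900 at t1, from 16500 to 35900 at t2 and from 9430 to 30400 at t3. Body wall muscle markers fell on 5 and 4 of 6 elements, with sums from 16200 to 55800, from 4590 to 18900 and from 2220 to 7500 in N2. Oocyte and embryo markers rose on 7 of 7 elements from t1 to t2, with sums in N2 from 5360 to 11000 at t1 and from 53500 to 99600 at t2, and 0 of 7 were called from t2 to t3. Epidermis and molting markers were called lower on 7 and higher on 1 of 10 elements at t2, with sums in N2 from 15700 to 31400 at t1 and from 685 to 1410 at t2, and 1 was higher and 1 lower at t3. Sperm markers were lower on 5 of 6 elements at t2 and higher on 3 of 6 at t3, with sums in N2 from 32900 to 70800, from 1700 to 6270 and from 17800 to 87100. Neuronal markers were higher on 3 and lower on 1 of 12 elements at t2 and lower on 2 at t3, and at each age 7 of the 12 were above background on no N2 array. At t3, where lbp-1 was lower in CB4856 on 4 of 5 arrays, 3 of 10 intestinal elements (2 genes) and 2 of 6 muscle elements were called higher in CB4856. Of the epidermis and molting elements 1 of 10 was called higher, and of the neuronal ones 1 of 12 lower. Calls were 0 for oocyte and embryo and for sperm elements, against 3.42% of all elements. Without normalization between arrays 1 intestinal, 3 muscle and 1 epidermis and molting element were called higher in CB4856, and 0 neuronal elements were called. Without normalization between arrays the marker elements called from t1 to t2 or from t2 to t3 kept their sign, but the calls moved at both steps. From t1 to t2, 4 of 5 intestinal, 3 of 5 body wall muscle and 7 of 7 oocyte and embryo calls were kept. For epidermis and molting 6 of 8 were kept, for sperm 3 of 5 and for neurons 0 of 4. Of all elements, 3810 were called at that step in that setting, against 7584 with quantile normalization. From t2 to t3, 0 of 10 intestinal and 1 of 6 body wall muscle elements were called lower, 4 of 7 oocyte and embryo elements and 4 of 6 sperm elements were called higher, 1 of 12 neuronal elements was called higher and 0 lower, and 2 of 10 epidermis and molting elements were called higher and 0 lower. Of all 22490 elements, 6654 were called higher and 310 lower from t2 to t3 in that setting. The part of these tissue changes in the lbp values was not tested.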

How the data were processed

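The authors quantified each spot on 14 arrays and deposited, for each dye, its mean intensity and local background median in scanner units, without correction or normalization. Their table of log2 ratios (N2 over CB4856 for each array), deposited beside these, served as 1 alternative. The scanner's flag codes, deposited as other numbers, were used for 1 alternative.

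Intensities were processed in R 4.3.3 with limma 3.58.1 and statmod 1.5.0: normexp background correction (offset 50), loess within arrays with control spots at weight 0, and quantile normalization between arrays. Strain differences were fitted to the log2 ratio of CB4856 over N2 in 1 limma model over 14 arrays with a mean for each age and a dye term. Age changes were fitted to the mean log2 intensity of both dyes, and those of each strain to the 28 channels with an intraspot correlation of 0.423. The p-values were adjusted by the method of Benjamini and Hochberg over 22490 worm elements, and 742 control or empty spots were left out. The code was tested on simulated data.

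Above background means a spot mean over the local median by more than 2 local SD. For each lbp gene above background in at least 14 of 28 channels, the text names the 3 elements of other genes with the highest r, and for each list at most the 3 called genes with the largest change in each direction. A platform symbol named 17447 elements, a coding sequence 3968 and the array's own name 1075. The members, lists and rules were chosen with earlier results of these data known. The number of arrays limits the precision. Sequences of the probes were not used here.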

Additional observations from a re-analysis of the deposited data

Results flagged for a closer look

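Over the 9 genes, 3 ages and the 2 measures (the log2 ratio, CB4856 over N2, and the mean log2 intensity), 54 groups of 4 or 5 arrays were examined for a single array far from the others by Dixon's test at the 95% level, which chance alone flags in about 1 of 20 groups. In 4 groups such an array was found. The mean log2 intensity of lbp-1 was 10.97 on t1 replicate 2, against 10.61 to 10.67 on the other t1 arrays. The log2 ratio of lbp-1 was -1.48 on t2 replicate 2, against -0.12 to 0.02 on the other t2 arrays. The mean log2 intensity of lbp-2 was 14.16 on t3 replicate 2, against 13.58 to 13.66 on the others. The log2 ratio of lbp-6 was 0.57 on t3 replicate 3, against -0.26 to -0.05 on the others.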

How the results depend on the processing

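In the 12 comparisons, 40 values of single lbp genes were called, and 14 of these were called under every alternative run. Of the 68 uncalled values, 9 were called under at least 1 alternative and 33 changed sign without being called. The setting that moved most was no normalization between arrays. It turned 5 called values around, all to uncalled ones, namely lbp-1 from t2 to t3 (0.02), lbp-6 from t2 to t3 (0.15), lbp-3 from t1 to t3 (0.13) and lbp-6 from t2 to t3 in N2 (0.19) and in CB4856 (0.10). With it, 0 genes were called from t2 to t3 against 6, 1 (lbp-9, higher) from t2 to t3 in N2 against 4, 3 from t1 to t2 in CB4856 against 6, and 0 from t2 to t3 in CB4856 against 6. For the strain difference at t3, 1 gene (lbp-1) was called instead of 0 with a normexp offset of 10, without dim elements or with scan session as a block, and 0 to 3 were called with 1 array left out. With the linear model on physiological age of the study's methods, at the thresholds given there, 1 gene was called from t1 to t2 against 6 and 0 from t2 to t3 against 6. The study's age thresholds are set on unadjusted p-values and are much stricter than the adjusted p under 0.05 used here. These counts therefore differ in threshold as well as in model, and the run is among the alternatives counted above. The shares of all elements called with this model, or within a strain without normalization between arrays, are not given here. The counts of these runs are therefore not read as a trait of the family.

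With each array left out in turn, 6 genes were called from t1 to t2, 5 to 6 from t2 to t3, 6 to 7 from t1 to t3, 6 and 4 to 5 in N2, and 4 to 6 and 4 to 7 in CB4856 for the same 2 age steps, and 0 in the other strain comparisons. For arrays of different ages with the same replicate number, the deviations from the age means correlated with r from -0.048 to 0.278 over 13 pairs. Arrays with different numbers were not set beside them, so this does not settle whether such arrays share an origin. The numbers were not taken as pairs between ages. Arrays of 1 age that share a label number with the dyes exchanged had a consensus correlation of 0.179, and with this as a random block or with such arrays averaged the strain difference of lbp-1 at t3 was -1.05 (adjusted p = 0.13) and -0.96 (adjusted p = 0.43). With a replicate block, 6 genes were called from t1 to t2 and 5 from t2 to t3, where lbp-1 (-0.92, adjusted p = 0.088) was lost, and 0 between the strains. The shares of all elements called in the runs of this paragraph are not given here. The restriction to 1 flag code was not run for the changes within a strain, since it leaves missing channels. Low signal limits lbp-8 most among the members, with 3 of 28 channels above background. The lbp-7 element was above background in 28 of 28 channels but dim at t3, with intensities from 249 to 600 in N2 and from 238 to 792 in CB4856.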
